A study of Mus musculus with 8 samples.

Results

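The E2F and DP transcription factors were examined in 4 primary murine pancreatic ductal adenocarcinoma (PDAC) cell lines, numbered #1, #3, #5 and #10, with and without the MEK inhibitor trametinib. The members are the 10 rows of the deposited table named E2f1 to E2f8, Tfdp1 and Tfdp2, out of 34478 gene symbols, selected by gene name. All lines came from pancreatic tumors of mice whose alleles included Ptf1awt/Cre and Trp53loxP/loxP, in which a Cre recombinase expressed from Ptf1a, a gene of the pancreatic epithelial lineage, removes Trp53. These alleles were shared by the DMSO and the trametinib group, so no line was free of them. The DMSO group holds 1 vehicle-treated library per line. The MEKi group holds 1 library per line after 48 h of trametinib at the IC50 of that line, a dose that is not given in the sources used here and need not be equal between lines. The age of the mice and the passage of the lines were likewise not given, and each line is a single culture from which both libraries were made.

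E2F proteins bind DNA next to genes needed for DNA replication and cell division, and most of them do so as a pair with a DP protein. E2F1, E2F2 and E2F3 are known as activators, which the retinoblastoma protein RB holds inactive until cyclin-dependent kinases phosphorylate it in late G1. E2F4 and E2F5 work mainly as repressors together with the RB relatives p107 and p130 in resting cells, E2F6 represses without RB through Polycomb-type complexes, and the atypical members E2F7 and E2F8 bind DNA without a DP partner and repress E2F targets later in the cycle. Growth factor signaling through MEK and ERK feeds into this pathway through D-type cyclins, and trametinib blocks MEK.

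The deposited values are normalized counts, gene-level read counts scaled between libraries by the authors. They summed to 30680091 to 36385719 per library, or about 29319676 to 45952677 reads if the most frequent low value is taken as 1 read. Dusp6, a feedback phosphatase of the ERK pathway, was lower with trametinib in 4 of 4 lines (log2 fold change -2.51, SE 0.14, adjusted p = 0.000123 in the limma fit with cell line as a block). Trp53 transcripts, which a gene-level count can include from exons outside the deletion, were at 275 to 355 in the DMSO group and 196 to 278 in the MEKi group. Of 8 ductal epithelial markers, the keratins were abundant and Epcam was at or near 0; the summed level of the list was 231006 to 353416 in the DMSO group and 119359 to 231497 in the MEKi group. The 8 fibroblast markers summed to 94.9 to 366 and 440 to 1258, with Lum at 0 in every library, the 6 leukocyte markers to 1073 to 2658 and 1241 to 3727, the 4 endothelial markers to 30.9 to 54.6 and 62.7 to 831, and the 5 acinar markers to 30.97 to 249 and 21.4 to 124, with Cpa1 at 0 in every library. The higher fibroblast sums with trametinib came mainly from Col1a1 (74.1 ± 41.9 and 876 ± 354) and the higher endothelial sums of lines #1 and #3 from Tek (7.33 and 21.5 with DMSO, 153 and 805 with trametinib), the 1 member called in each list, and the leukocyte sums were mostly Cd14. The part of these markers in the results below was not tested. Line #3 stood apart: the median size of the log2 change over the 15888 genes tested was 0.72 in line #3 and 0.50 to 0.55 in the others. Its Dusp6 change of -2.42 lay within the range of the other lines (-2.97 to -2.11).

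All 10 E2F and DP genes passed the filter on low values, all 10 were lower with trametinib in 4 of 4 lines, and 9 of them, all but Tfdp2, passed the test. For comparison, 25.6% of all genes tested (4075 of 15888) passed it in the lower direction. Among the 8416 genes called in either direction, 4075 were lower. With libraries rescaled to equal totals, 3284 of 8599 called genes were lower. E2f2 and E2f8 lost the most, with 23.0% ± 11.1 and 22.9% ± 6.24 of the DMSO level left (mean ± SD, n = 4 lines), and E2f3 lost the least among the genes that passed, with 75.2% ± 6.85 left. The median log2 fold change was -0.82 over the 10 genes and 0.07 over all genes tested. Since RNA was taken from whole cultures, fewer cycling cells and less RNA per cell cannot be told apart.

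**Figure D1:**
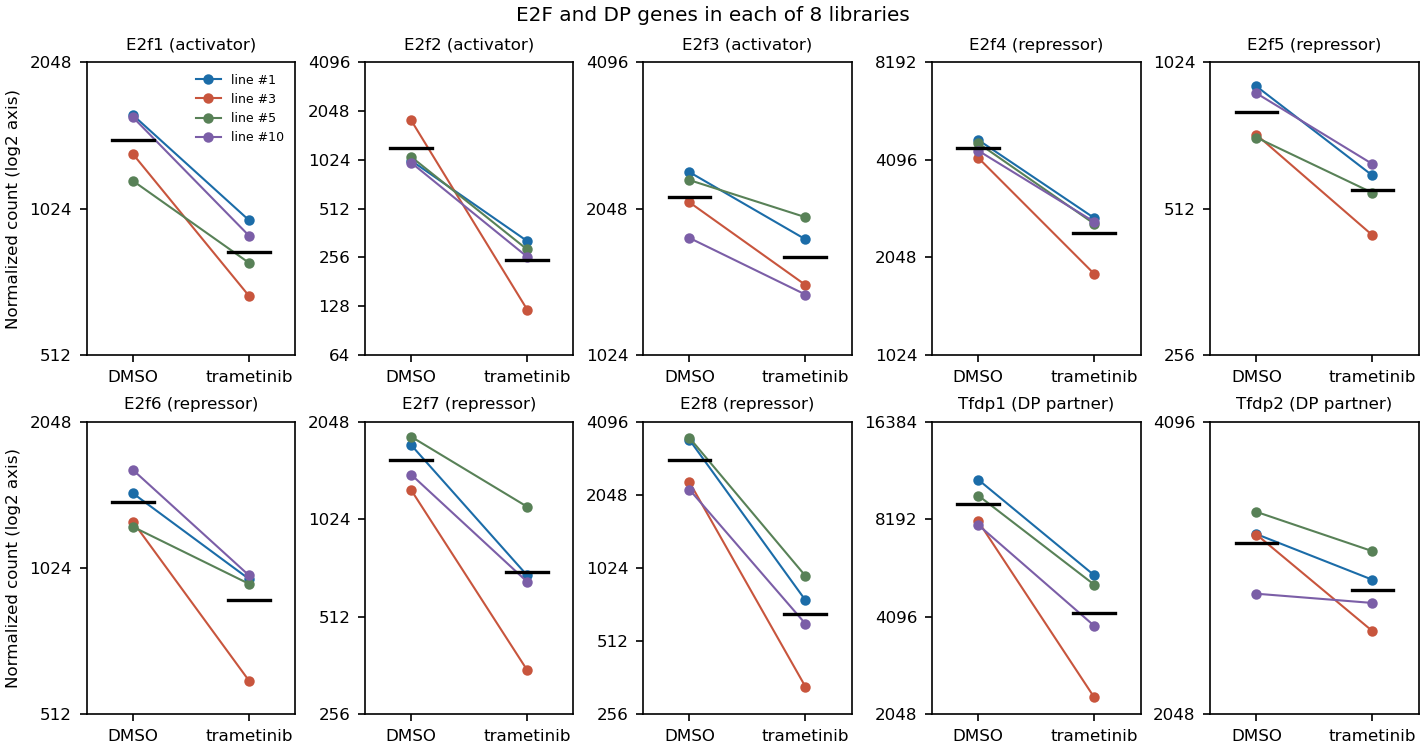
Normalized counts (log2 axis) of the 10 E2F and DP genes in the DMSO and trametinib libraries of lines #1, #3, #5 and #10; each colored line joins the libraries of 1 cell line and black bars mark group means of 4. All 40 joined pairs go down, with the steepest slope in line #3 for each gene.

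Among the activators, E2f1 (chr2:154559407-154569892, minus strand, GRCm38) codes for the best known E2F, which also takes part in apoptosis. Its normalized counts in lines #1, #3, #5 and #10 were 1594, 1325, 1167 and 1577 with DMSO and 969, 677, 792 and 901 with trametinib. Every trametinib library was below every DMSO library, and 59.2% ± 7.0 of the DMSO level was left (log2 fold change -0.76, SE 0.10, adjusted p = 0.00138).

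E2f2 (chr4:136172394-136196057, plus strand) codes for the activator E2F2. It was at 1012, 1792, 1067 and 983 with DMSO and at 323, 122, 286 and 258 with trametinib. Line #3 held both the highest DMSO and the lowest trametinib value, so that 6.81% of the DMSO level was left there against 26.3% to 31.9% in the other lines. The log2 fold change was -2.33 (SE 0.36, adjusted p = 0.00214), and it was -1.82 (adjusted p = 0.000163) without line #3. The 122 normalized counts correspond to about 130 reads, for which counting error alone is 8.76%.

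E2f3 (chr13:29906575-29986063, minus strand) codes for E2F3, an activator transcribed from separate start sites into a longer and a shorter form that gene-level counts merge. It was at 2434, 2109, 2344 and 1782 with DMSO and at 1771, 1427, 1967 and 1363 with trametinib. The groups overlapped, because line #10 had less E2f3 with DMSO than line #5 with trametinib, although every line was lower than its own control. The log2 fold change was -0.42 (SE 0.09, adjusted p = 0.00804). With the block left out the adjusted p was 0.0940, so this call rests on the pairing.

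Among the repressors, E2f4 (chr8:105297663-105305370, plus strand), whose product is the main E2F of resting cells, was the most abundant E2F gene. It was at 4716, 4154, 4609.5 and 4371 with DMSO and at 2709, 1822, 2601 and 2636 with trametinib. The DMSO libraries lay close together, with a coefficient of variation of 5.63%, and the trametinib library of line #3 lay well below the other 3. The log2 fold change was -0.89 (SE 0.10, adjusted p = 0.000838).

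E2f5 (chr3:14578641-14606309, plus strand), which codes for the close relative of E2F4, was at 913, 726, 717 and 884 with DMSO and at 599, 451, 552 and 632 with trametinib. Its groups did not overlap, and 69.1% ± 6.56 of the DMSO level was left (log2 fold change -0.54, SE 0.11, adjusted p = 0.00573). E2f6 (chr12:16810963-16839742, plus strand), the RB-independent repressor gene, was at 1457, 1272, 1243 and 1628 with DMSO and at 972, 600.2, 949 and 988 with trametinib. Its trametinib values were alike in lines #1, #5 and #10 and lower in line #3, and the log2 fold change was -0.69 (SE 0.13, adjusted p = 0.00458).

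The atypical repressor genes differed in depth of fall. E2f7 (chr10:110745439-110787384, plus strand) was at 1732, 1258, 1838 and 1404 with DMSO and at 686, 350.2, 1118 and 656 with trametinib, which left between 27.8% in line #3 and 60.8% in line #5 (log2 fold change -1.25, SE 0.18, adjusted p = 0.00171). E2f8 (chr7:48866429-48881596, minus strand) was at 3444, 2305, 3509 and 2149 with DMSO and dropped to 754, 333, 949.7 and 603. No trametinib library came near a DMSO library, and the fitted log2 fold change was -2.17 (SE 0.17, adjusted p = 0.000311), with line values of -2.79 to -1.83. E2f8 was the single member called when the test asked for a change beyond 2-fold, a test that 1.11% of all genes passed in the lower direction. GENCODE M21 places 1810022K09Rik, 1700020G17Rik and Gm2788 on the opposite strand of E2f5, E2f7 and E2f8; the libraries were stranded, but whether the counting used strand is not given in the sources used here.

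The DP genes behaved unlike each other. Tfdp1 (chr8:13338751-13378448, plus strand), which codes for the main dimer partner DP1, was at 10835.5, 8057, 9683 and 7857 with DMSO and at 5495, 2309, 5140 and 3837 with trametinib. Its groups did not overlap and 45.3% ± 11.2 of the DMSO level was left (log2 fold change -1.18, SE 0.16, adjusted p = 0.00131); without line #3 the log2 fold change was -0.98 (adjusted p = 0.000184). Tfdp2 (chr9:96196275-96323646, plus strand), coding for the second partner, was at 3137, 3134, 3307 and 2724 with DMSO and at 2816, 2493, 3013 and 2665 with trametinib. Each line was lower than its own control, by little in line #10, and the groups overlapped. Its log2 fold change of -0.16 (SE 0.09, adjusted p = 0.152) did not pass the test, and its 95% interval of -0.37 to 0.04 holds both no change and a small fall. Per kb of exon, Tfdp1 exceeded Tfdp2 by 11.3 ± 1.4 times with DMSO and 5.76 ± 1.68 times with trametinib, a ratio that was lower in 4 of 4 lines.

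**Figure D2:**
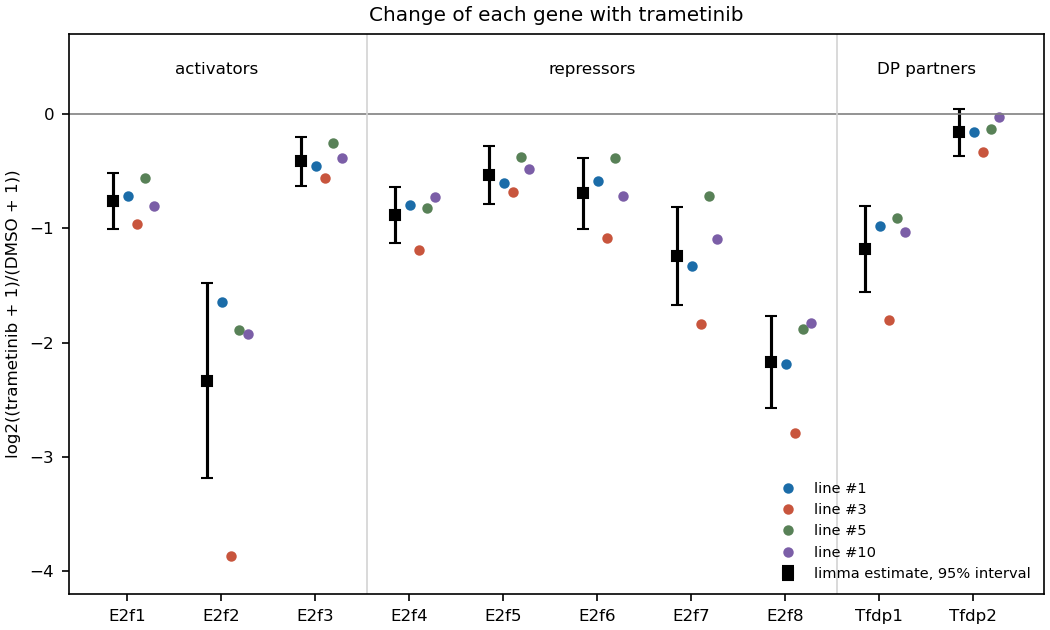
Log2 change of each gene in each line (circles) and the limma estimate with its 95% interval (black squares). The interval of Tfdp2 alone reaches past 0, and line #3 (red) has the lowest circle for every gene.

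Of the 10 genes, 8 had no overlap between the groups, with E2f3 and Tfdp2 as the exceptions; of all genes tested, 16.2% had all 4 trametinib libraries below all 4 DMSO libraries. Without the cell line as a block, 8 of the 10 genes were called lower, beside 14.8% of all genes. Line #3 had the largest fall for all 10 genes. That line also had the largest fall for 67.9% of the 4075 genes called lower. With line #3 left out, the same 9 genes were called.

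Promoter sequences are shown for the genes in which an E2F motif was found, since E2F genes are themselves known E2F targets, and for E2f8, which had the most precise large fall. RefSeq windows on GRCm38.p6 of 300 bases, 250 before to 50 after a start site, were held for 8 of the 10 genes, all but E2f4 and E2f5. E2F binding sites have a T-rich start and a GC-rich core, and the motif searched was any of the octamers TTTCCCGC, TTTGGCGC, TTTCGCGC and TTTGCCGC on both strands. In the sequences, written 5′ to 3′ on the strand of the gene, capitals mark the octamer or its reverse complement. The E2f2 window starts from a site 120 bases upstream of the GENCODE gene, and its octamer begins 39 bases downstream of that site.
E2f2, chr4:136172024-136172323, plus strand: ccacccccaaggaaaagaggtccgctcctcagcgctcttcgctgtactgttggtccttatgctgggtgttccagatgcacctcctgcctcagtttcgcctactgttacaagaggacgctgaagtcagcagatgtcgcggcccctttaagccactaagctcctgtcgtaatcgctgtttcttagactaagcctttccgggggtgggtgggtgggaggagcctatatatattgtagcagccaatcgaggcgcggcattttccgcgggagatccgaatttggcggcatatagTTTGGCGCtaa
E2f3, chr13:29986041-29986100, minus strand, with the octamer beginning 11 bases upstream of the start site: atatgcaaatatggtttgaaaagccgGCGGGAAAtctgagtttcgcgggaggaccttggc
E2f7, chr10:110745215-110745274, plus strand, with the octamer beginning 198 bases upstream of the start site: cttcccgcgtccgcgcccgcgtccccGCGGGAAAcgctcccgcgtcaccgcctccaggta
Tfdp1, chr8:13338682-13338741, plus strand, with the octamer beginning 43 bases upstream of the start site: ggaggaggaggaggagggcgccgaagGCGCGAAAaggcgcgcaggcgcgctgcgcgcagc
E2f8, chr7:48881547-48881846, minus strand, with none of the octamers: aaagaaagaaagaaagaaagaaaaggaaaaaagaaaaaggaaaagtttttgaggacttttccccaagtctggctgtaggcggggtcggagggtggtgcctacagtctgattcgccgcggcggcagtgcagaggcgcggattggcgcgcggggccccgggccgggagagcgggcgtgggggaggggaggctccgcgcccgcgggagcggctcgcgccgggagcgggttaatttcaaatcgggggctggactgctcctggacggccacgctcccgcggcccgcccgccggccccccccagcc

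Such an octamer was thus found for 4 of the 8 genes with a window, and for 2.61% of all 27025 genes with one. Of 24 G1/S target genes with a window, 12 held one. The 4 genes with an octamer include both a strong fall (E2f2) and the smallest called fall (E2f3), and E2f8 fell nearly as far as E2f2 with none in its window. The element TTTGAA, known as CHR in genes of G2 and mitosis, was found on either strand for E2f2, in a second window inside the gene, for E2f3 and for E2f8, and for 20.2% of all genes with a window. The E2f1 window has its start site 466 bases inside the GENCODE gene and those of Tfdp2 62430 and 62973 bases inside, so they do not show the upstream start of these genes. Only exact matches were counted, so a window without one, such as that of E2f8, can still hold a near match. A match is a run of letters and not a measured binding site.

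The comparison of activator with repressor genes asked whether trametinib moved the balance between the classes. The mean log2 fold change of the 3 activator genes was -0.94, -1.80, -0.90 and -1.04 in lines #1, #3, #5 and #10, and that of the 5 repressor genes was -1.10, -1.52, -0.84 and -0.97. The activator mean was thus above the repressor mean in line #1 and below it in the other 3 lines. The difference, activators minus repressors, was 0.16, -0.28, -0.06 and -0.07, or -0.06 ± 0.18 (SD, n = 4 lines), smaller than its spread between lines. Without line #3 it was 0.011 ± 0.13. With 4 lines an exact sign-flip test cannot give a two-sided p below 0.125, and none is given.

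Within each class the genes split further than the classes did. E2f2 fell by 2.33 ± 1.03 (log2, SD, n = 4 lines) while E2f1 and E2f3 had a mean of -0.59 ± 0.15. Among the repressors, the atypical pair E2f7 and E2f8 had a mean of -1.71 ± 0.45, against -0.71 ± 0.16 for E2f4 and E2f5 and -0.69 ± 0.29 for E2f6. E2f8 carried much of the mean of the pair, and in line #5 the change of E2f7 (-0.72) was smaller than that of E2f4 (-0.83). In each of the 4 lines both E2f2 and the atypical pair fell further than the E2f1 and E2f3 mean, the E2f4 and E2f5 mean and E2f6. The class difference therefore depended on which genes were counted: it was -0.46 without E2f7 and E2f8, 0.25 without E2f2 and E2f8, and 0.096 with medians over genes in place of means.

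**Figure D3:**
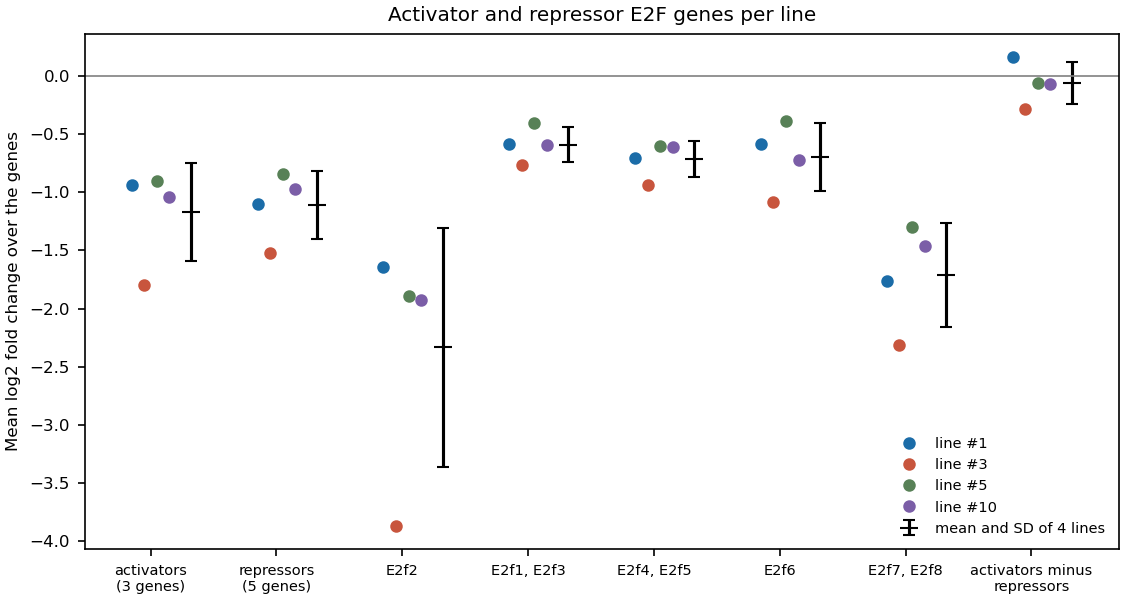
Mean log2 fold change over the genes of each class or subgroup in each line (circles), with the mean and SD of the 4 lines (black). Activator and repressor means lie close to each other, while E2f2 and the mean of E2f7 and E2f8 lie lower than the other subgroup means.

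The summed level of the 8 E2F genes, as normalized counts per kb of exon, was 4316 ± 275 with DMSO and 2280 ± 389 with trametinib (SD, n = 4 lines) and was lower in 4 of 4 lines. E2f4 alone made up 42.2% ± 0.958 of it with DMSO and 43.7% ± 1.20 with trametinib. The activator share was 25.5% ± 2.40 and 27.2% ± 1.95, a difference of 1.71 ± 1.71 percentage points that was upward in 3 of 4 lines and about as large as its spread. With the longest coding transcript as length, the difference was 1.91 ± 1.36 percentage points and upward in 4 of 4 lines. Within that share E2f2 went from 5.83% ± 2.15 to 2.16% ± 0.492, lower in 4 of 4 lines, and E2f3 from 9.23% ± 0.890 to 13.3% ± 2.12, higher in 4 of 4 lines. The E2f8 share went from 12.1% ± 2.48 to 5.17% ± 1.42 and was lower in 4 of 4 lines. The E2f7 share went from 3.99% ± 0.527 to 3.33% ± 1.14 and was lower in 3 of 4 lines, with a rise in line #5. The composition of E2F transcripts thus held less E2f2 and E2f8 and more E2f3 with trametinib in each line, at a total that was lower.

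**Figure D4:**
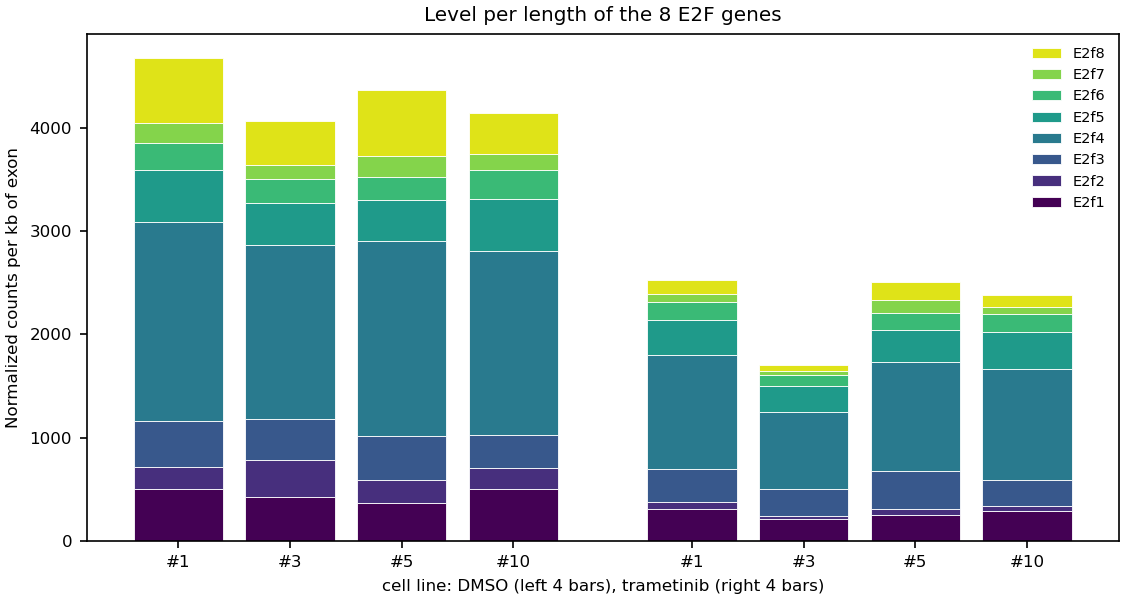
Stacked normalized counts per kb of exon of the 8 E2F genes in each library. E2f4 is the widest band in all 8 bars, the trametinib bars are shorter, and the E2f2, E2f7 and E2f8 bands are thin in them.

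By level per kb of exon, Tfdp1 (2482 ± 385) and E2f4 (1820 ± 102) led with DMSO in all 4 lines and did not overlap with each other or with the next gene. E2f8 (524 ± 133), E2f5 (455 ± 57.8), E2f1 (449 ± 65.5) and E2f3 (399 ± 53.6) followed, with ranges that overlapped from each to the next. E2f2 (249 ± 79.3), E2f6 (247 ± 31.6), Tfdp2 (219 ± 17.7) and E2f7 (173 ± 30.2) were lowest, again with overlapping neighbors. With trametinib the order was Tfdp1 (1143 ± 394), E2f4 (996 ± 170), E2f5 (313 ± 44.2), E2f3 (301 ± 52.7), E2f1 (265 ± 40.6), Tfdp2 (196 ± 15.7), E2f6 (155 ± 32.7), E2f8 (121 ± 47.8), E2f7 (78.0 ± 35.05) and E2f2 (50.7 ± 17.96). Tfdp1 and E2f4 now overlapped, and the steps from E2f4 to E2f5 and from Tfdp2 to E2f6 were the ones without overlap. E2f8 moved from place 3 to place 8 and E2f2 from place 7 to place 10. With the longest coding transcript as length, E2f8 again moved from place 3 to place 8, whereas E2f2 was at place 10 in both groups. E2f6 was then at place 4 in both groups, since much of its annotated exon length (5663 bases, against 2418 in that transcript) lies outside it.

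The genes around E2F in its pathway were taken from lists of known members. Of the RB family, Rbl1, which codes for p107 and is itself a known E2F target, fell (log2 fold change -0.95, SE 0.18, adjusted p = 0.00481), while Rbl2, which codes for p130, rose by 0.66 (SE 0.09, adjusted p = 0.00161). Rb1 was called higher (0.34, SE 0.11, adjusted p = 0.0373), a call lost without the block (adjusted p = 0.128) and with any single line left out. That call was also lost with quantile or median scaling, without the filter on low values and with eBayes without trend. All 3 genes moved in the stated direction in 4 of 4 lines. Of 8 genes for G1 cyclins and their kinases, 5 fell and 3 (Ccnd2, Ccnd3 and Cdk6) were not called, beside 25.6% of all genes called lower. Ccnd1, the D-type cyclin gene downstream of ERK signaling, fell by 2.03 on the log2 scale (SE 0.16, adjusted p = 0.000335), and Ccne2, an E-type cyclin gene and E2F target, fell by 1.94 (SE 0.28, adjusted p = 0.00177). Ccne1, Cdk2 and Cdk4 were the others that fell, with log2 fold changes of -1.91, -0.72 and -0.41; Cdk4 lost its call without the block (adjusted p = 0.248).

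Of 7 CDK inhibitor genes, 3 rose, 2 fell and 2 (Cdkn1b and Cdkn2a) were not called, while 27.3% of all genes tested were called higher and 25.6% lower, so the number that fell is near the background. Cdkn1c, coding for p57, was at 33.6 ± 37.9 with DMSO and 136 ± 136 with trametinib and rose in 4 of 4 lines (log2 fold change 2.13, SE 0.29, adjusted p = 0.00138). Cdkn2b, coding for p15, rose by 0.55 (SE 0.11, adjusted p = 0.00664). Cdkn1a, coding for p21, was called at 0.54 (adjusted p = 0.0446) but was lower in line #5. The falling genes were Cdkn2d (-0.80, adjusted p = 0.0118) and Cdkn2c (-0.54, adjusted p = 0.0139), and both calls were also lost with line #10 left out (adjusted p = 0.0503 and 0.0513). These inhibitor calls rest on the pairing of libraries by line, as none of the 5 passed without the block (adjusted p of 0.0585 to 0.560).

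The MuvB core is the scaffold that joins E2F4 and p130 in resting cells and B-MYB or FOXM1 in dividing cells. Of 9 genes for it and its partners, 7 fell, beside 25.6% of all genes, and Lin37 and Lin52 were not called. Rbbp4 and Dyrk1a lost their calls without the block (adjusted p = 0.0973 and 0.368), which left 5 of 9, beside 14.8% of all genes in that fit. Mybl2, coding for B-MYB and a known E2F target, fell by 1.95 on the log2 scale (SE 0.20, adjusted p = 0.000595), and Lin54, coding for the DNA-binding subunit, fell by 1.11 (SE 0.19, adjusted p = 0.00332). Of 10 genes for the Polycomb-type complex that carries E2F6, 6 fell, beside 25.6% of all genes, and 4 were not called. Max lost its call without the block (adjusted p = 0.159), which left 5 of 10, beside the same 14.8%. Cbx3, a reader of silenced chromatin, fell by 0.94 (SE 0.09, adjusted p = 0.000495), and L3mbtl2 fell by 0.84 (SE 0.17, adjusted p = 0.00636). No member of either list was called higher.

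All 30 G1/S genes of the list, which code for DNA replication and nucleotide synthesis and are known E2F targets, fell, beside 25.6% of all genes tested, with a median log2 fold change of -1.43 and a range of -2.16 to -0.68. Tk1, coding for thymidine kinase, fell by 2.16 (SE 0.23, adjusted p = 0.000654), and Cdc6, a replication licensing factor gene, fell by 1.99 (SE 0.20, adjusted p = 0.000606). All 16 G2/M genes fell as well, beside the same 25.6%, with a median of -1.43 and a range of -1.77 to -0.999. Birc5, coding for survivin, fell by 1.77 (SE 0.27, adjusted p = 0.00203), and Ccna2, coding for cyclin A2, fell by 1.59 (SE 0.26, adjusted p = 0.00291). By line, the median of the G1/S genes was -1.22, -2.22, -1.05 and -1.30 in lines #1, #3, #5 and #10. The deepest value was in line #3 and the mildest in line #5, as for the median of the 10 E2F and DP genes (-0.76, -1.14, -0.64 and -0.77). The 2 lists were compiled from genes known to fall when cells stop cycling, so their direction beside that of the E2F genes is a description.

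**Figure D5:**
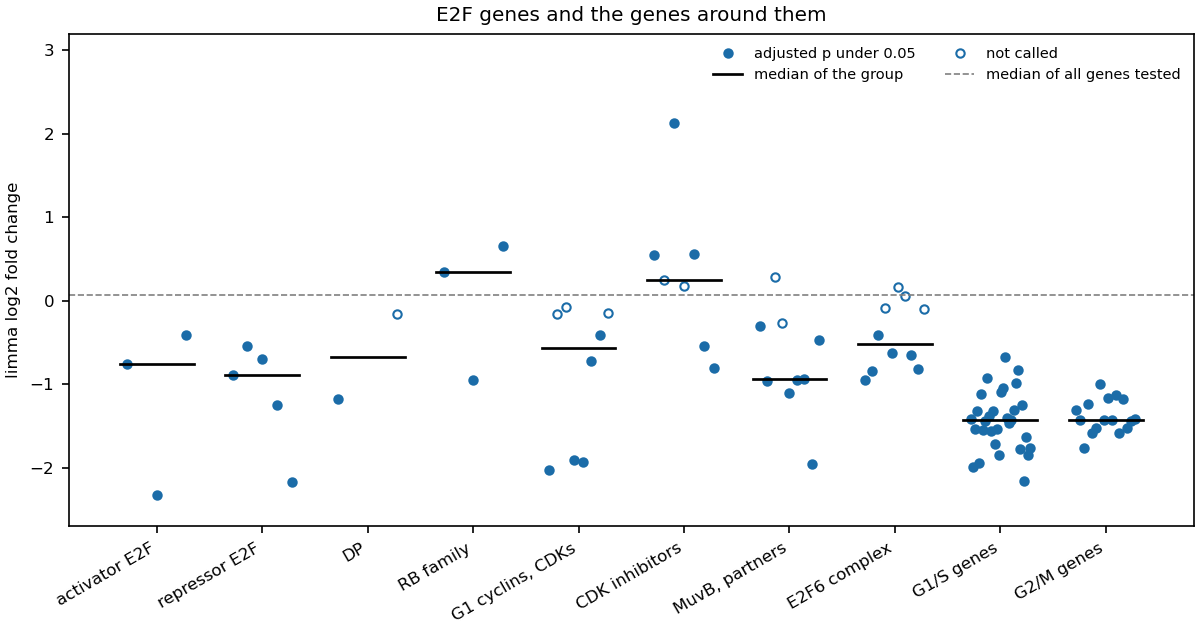
Log2 fold change (limma) of each tested gene in the E2F, DP and pathway lists; filled circles passed the adjusted p of 0.05, open circles did not, black bars are list medians and the dashed line is the median of all genes tested (0.07). All G1/S and G2/M circles are filled and below 0, while the RB family and the CDK inhibitors lie on both sides.

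The genes whose levels followed each member most closely were found by Pearson correlation of log2 values over the 8 libraries, which mixes the change with treatment and the spread between lines. For E2f7 they were Dnmt1 (r = 0.99), the maintenance DNA methyltransferase gene, and Clspn (r = 0.99), a replication checkpoint gene. Tfdp1 was followed most closely by Ppp1r8 and Ercc6l, E2f8 by Nsun2 and the pseudogene Trmt112-ps2, and E2f4 by Nob1, with r of 0.997 to 0.999. For E2f1 the closest genes were Irf2bp2 and Farsa (both r = 0.99), for E2f2 9130008F23Rik and Chmp6 (both 0.99), for E2f3 Traip and Ube3a (both 0.99), for E2f5 Grk2 (0.998) and Pdss2 (0.987), and for E2f6 Gm12286 and Shcbp1 (both 0.99). Tfdp2 was closest to Rfx7 and the pseudogene Pgam1-ps2 (both r = 0.98). Reads of the pseudogenes can be shared with their parent genes. The number of tested genes with r above 0.95 ranged from 31 for Tfdp2 and 64 for E2f3 to 622 for E2f8 and 756 for E2f4. Among the 45 pairs of members, r ranged from 0.51 for E2f1 with Tfdp2 to 0.98, with a median of 0.88; the libraries are shared by all these values, so they describe the set and carry no p.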

How the data were processed

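RNA was measured in 8 libraries, 1 per line and treatment (polyA RNA, stranded mRNA kit). The values the authors deposited are a signal, normalized counts for each gene made comparable between libraries; the scaling method and the depth are not given in the sources used here. The submitters' processing notes name CASAVA 2.17, Salmon 0.12, DESeq2 1.18 and mm10 without their roles. All columns of the table were used. Depth was estimated from the most frequent value between 0.5 and 1.4, taken as 1 read; whole reads were not recovered.

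Values were transformed as log2(value + 1), so changes of low genes are understated, and the 15888 genes that averaged 10 or more were fitted in limma 3.58.1 (R 4.3.3, trend, cell line as block). Adjustment over these genes was by the Benjamini-Hochberg method, two-sided, at 0.05. Libraries with the same number come from the same cell line; their deviations from the group means correlated at 0.63 to 0.72. P-values measure the spread between 4 lines from 1 model. On simulated data the fit recovered 88 of 100 genes changed by 1 and 97 of 100 changed by 2 on the log2 scale. It called 4 of 15688 unchanged genes. The simulation gave a changed gene the same change in every line and left most genes unchanged. In the data 8416 genes were called, and the SD of the log2 change between lines reached 1.03 (E2f2). These rates therefore check the code and are not the power or error rate of this dataset.

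Levels were divided by the GENCODE M21 exon union on GRCm38 (or the longest coding transcript); promoters came from RefSeq. Tables and plots were made in Python 3.11.15 with pandas 2.3.3 and matplotlib 3.10.9.

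The members and gene lists were chosen with earlier results of these data known. Named genes are the 10 members, the RB family, Dusp6, the 2 largest called rises and falls of each pathway list and the 2 closest genes by correlation for each member; other list genes were named after their values were seen, and a few items that the rule would name are not reported here. Alternatives were pseudocounts of 0.1 and 5, equal totals, quantile and median scaling, other filters, no block, other eBayes settings, a 2-fold minimum and each line left out.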

Additional observations from a re-analysis of the deposited data

Results flagged for a closer look

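Among 35 sets of 4 line values (levels, changes and class means of the E2F and DP genes), 6 held a value far from the other 3 by Dixon's criterion. All 6 lay in line #3. Independent sets would give about 1.75 by chance. These sets are not independent, since they share the same libraries and the changes and class means are computed from the levels. The 6 can therefore not be weighed against that number. With DMSO, E2f2 in line #3 was at 1792 normalized counts against 983 to 1067 in the other lines. Its log2 fold change there was -3.87 against -1.92 to -1.65. With trametinib, E2f4 in line #3 was at 1822 against 2601 to 2709, and E2f6 was at 600.2 against 949 to 988. The log2 fold change of Tfdp1 in line #3 was -1.80 against -1.03 to -0.91. The mean log2 fold change of the 3 activator genes in line #3 was -1.80 against -1.04 to -0.90.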

How the results depend on the processing

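The 9 called members kept their direction and their call in the 14 alternatives that tested each gene against no change, except E2f3, whose adjusted p was 0.0940 without the cell line as a replicate block. Tfdp2 was not called in any (adjusted p 0.0565 to 0.752). Without the block 4552 genes were called, against 8416, of which 2347 were lower, against 4075; a test for a change beyond 2-fold called 733 genes, 176 of them lower, and 1 of the 10 members. With each line left out in turn, 6747 to 8202 genes were called, 3302 to 4007 of them lower, and 9 members each time. The activator minus repressor difference was -0.46 without E2f7 and E2f8, 0.25 without E2f2 and E2f8 (an alternative chosen after seeing the data), 0.096 with medians over genes and -0.14 to 0.011 with each line left out, with the sign changing without line #3. The activator share of E2F transcripts rose by 1.13 to 2.29 percentage points with each line left out and by 1.91 with the longest coding transcript as length, both chosen after seeing the data. Rescaling to equal totals moved the median of all genes by 0.13 and quantile scaling by -0.10 on the log2 scale. The cause of these differences was not tested. Each group holds 4 libraries, and the lowest member value rests on an estimated 130 reads.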

Other observations

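Some known E2F target genes of apoptosis were also examined. Pmaip1, coding for the BH3-only protein NOXA, averaged 1011 ± 167 normalized counts in the DMSO group and 5395 ± 1524 in the MEKi group and rose in 4 of 4 lines (log2 fold change 2.38, SE 0.11, adjusted p = 9.44e-05). Casp8, coding for an initiator caspase, fell by 0.43 on the log2 scale (SE 0.09, adjusted p = 0.0059). Apaf1 was called at 0.45 (adjusted p = 0.0238), a call lost without the block (adjusted p = 0.125) and without line #5 or line #10. That call was also lost with median scaling and with eBayes without trend. Trp73, a classical E2F1 target, was listed at 0 in all trametinib libraries and averaged 0.387 with DMSO, under the level of 3 reads.

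Of 6 germline genes that E2F6 is known to silence in somatic cells, 5 stayed below the mean of 10 required for testing, at group means of 0 to 8.05 normalized counts. The sixth, Stag3, was at 143 ± 95.8 with DMSO and 212 ± 226 with trametinib and was not called (log2 fold change 0.19, SE 0.31, adjusted p = 0.630). Its log2 change was -0.03, 1.32, -0.48 and -0.04 in lines #1, #3, #5 and #10, so lines #1 and #10 were nearly unchanged.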
